A study of Mus musculus with 8 samples.

Results

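Cyclosporin A (CSA) was compared with its solvent, DMSO, on the arrays of day 6 of reprogramming. The 4 arrays of this comparison, 2 per treatment, were chosen by their titles from the 8 arrays of the series, and the comparison was described across 12529 genes, each read from 1 tested probe set, that of the highest mean over the 8 arrays. The cells were mouse cells of C57BL/6 background in a secondary reprogramming system: they carry the factors Oct4 (Pou5f1), Sox2, Klf4 and Myc (OSKM), and doxycycline, added to embryonic stem cell medium with serum and leukemia inhibitory factor, starts their expression. All groups, controls included, thus carried the factors and received doxycycline. The CSA arrays are from cells given CSA, whose dose the labels write as 10 mM, a unit that was not checked against another source here and may be misprinted, and the DMSO arrays from cells given DMSO alone. Both arrays of a group are biological repeats that the design text calls independent. The labels call the cells reprogramming cells and do not name the cell type they started from.

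CSA is a cyclic peptide that binds cyclophilins, a family of peptidyl-prolyl isomerases, and the complex of the drug and a cyclophilin blocks calcineurin. Calcineurin is a calcium-dependent phosphatase that sends NFAT transcription factors into the nucleus. In the first days of reprogramming by OSKM, fibroblasts lower their mesenchymal genes and acquire epithelial genes, a mesenchymal-to-epithelial transition, and the genes of the pluripotency network follow later. Bulk arrays average over all cells of a culture, so a lower signal from fewer cells of a kind and a lower signal from less RNA per cell cannot be told apart in any result below.

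Signals are log2 values of the Affymetrix 3' arrays, and each difference is CSA minus DMSO in log2 units with the standard error of the limma fit (n = 2 arrays per group). Adjusted p-values are from limma with Benjamini-Hochberg adjustment over 27022 probe sets, and a gene counts as changed where this value was under 0.05. A rise or a fall is a difference between treatments on the same day and not a change from day 3 to day 6. The number of arrays limits the precision. Among tested probe sets, log2 signals correlated with r = 0.974 between the DMSO arrays and 0.97 between the CSA arrays of day 6, and with r = 0.957 to 0.963 between treatments. The share of probe sets called rose from 1.12% among the dimmest probe sets (mean log2 signals of 5.37 to 6.65) to 19.8% among the brightest (10.0 to 15.0). Defining markers of fibroblasts and of epithelial cells were both present at day 6. The summed linear signal of 6 fibroblast markers (Thy1, Pdgfra, Col1a1, Col1a2, Twist1 and Vim) was 34200 and 33000 on the DMSO arrays and 38600 and 36600 on the CSA arrays, and that of 5 epithelial markers (Cdh1, Epcam, Krt8, Krt18 and Cldn6) was 35100 and 32700 against 24300 and 23500. Vim was the only fibroblast marker past the threshold. Without it the other 5 summed to 14200 and 14400 on the DMSO arrays and 12700 and 12800 on the CSA arrays. Most of the epithelial sum came from Krt8, which read 14.49 and 14.35 against 13.91 and 13.87. Cdh1, Epcam and Krt8 were lower past the threshold. Krt18 stood higher on both CSA arrays, and neither it nor Cldn6 passed the threshold. Of 6 pluripotent cell markers, 3 passed the filter on low signals, and Sox2, Nanog and Zfp42 did not. The sums over 5 immune markers (548 and 493 on the DMSO arrays, 599 and 609 on the CSA arrays), 4 endothelial markers (66.0 and 97.6, 128 and 217) and 4 muscle markers (139 and 129, 151 and 182) were low. A wider list of 8 endothelial genes summed to 3430 and 3170 against 3490 and 3440; of its 4 tested genes, Tek was higher and Eng lower. The sum over 4 neuronal markers was high, at 15300 and 15600 on the DMSO arrays and 13300 and 13800 on the CSA arrays. Most of it came from Stmn2, a tubulin-binding protein of neurons, which read 13.78 and 13.81 against 13.55 and 13.61 and was lower under CSA, while Tubb3, a neuronal tubulin, read 9.59 and 9.50 against 10.02 and 9.85 and was higher. Snap25 was at 0 on CSA replicate 1. The part of other cell types in the results below was not tested.

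At day 6, 803 genes were higher under CSA, 6.41% of those tested, and 766 were lower, 6.11%. Every list count of day 6 below is to be read beside these shares. Counts of day 3 are to be read beside 7.14% of genes higher and 5.52% lower. Counts of the interaction test, which compares the CSA effects of the days, are to be read beside 2.36% higher and 3.43% lower at day 6. Lists of bright genes can hold more calls, as 19.8% of the brightest probe sets were called. Stress genes of the ATF4 pathway, chaperones of the endoplasmic reticulum, lysosomal enzymes, late cornified envelope genes and smooth muscle genes stood among the rises. Epithelial genes, immediate early genes, hypoxia-response genes, Pou5f1 and the DNA methyltransferase Dnmt3b stood among the falls. Most changes were small: the median size over the changed genes was 0.56 (1.48-fold), 153 genes rose and 98 fell at least 2-fold, and 27 rose and 8 fell at least 4-fold. Both CSA arrays lay on the same side of both DMSO arrays for all 1569 changed genes, and for 58.1% of all genes tested. That the arrays of a changed gene do not overlap therefore adds nothing to its call. The median difference over all genes was -0.0119. Without an intensity trend in limma's prior variance, 243 genes were higher and 180 lower, and 391 of the 1569 were still called. Leaving out DMSO replicate 1, DMSO replicate 2, CSA replicate 1 and CSA replicate 2 in turn left 469, 410, 513 and 438 genes higher and 297, 277, 498 and 402 lower, and counts with each array left out are given in this order.

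**Figure D1:**
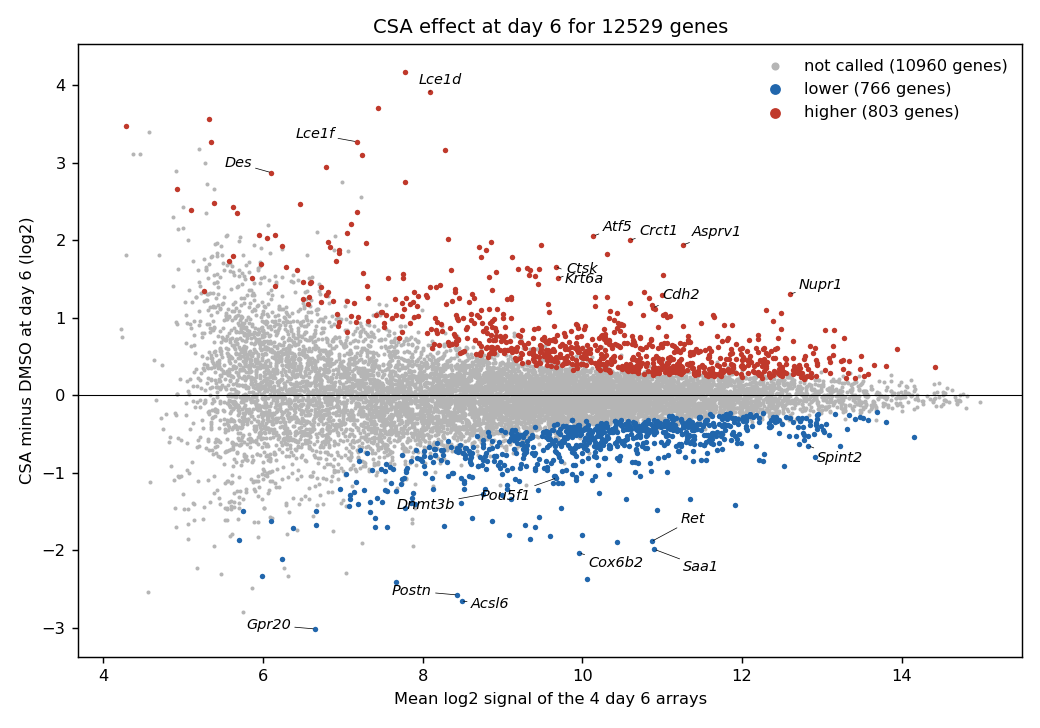
CSA minus DMSO at day 6 (log2, vertical axis) against the mean log2 signal of the 4 day 6 arrays (horizontal axis) for 12529 genes; red, higher; blue, lower; grey, not past the adjusted threshold. The largest rises include late cornified envelope genes (Lce1d at 3.92), the largest falls include Gpr20 (-3.01) and Acsl6 (-2.65), and small differences pass the threshold mainly at bright signals.

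Genes of the stress pathway that runs through ATF4, a transcription factor made when the initiation of translation is held back, were among the largest rises. Of 18 tested ATF4 and CHOP regulators, 7 rose and 0 fell, and their median difference was 0.16. Atf5, a transcription factor of the same family, read 9.21 and 9.01 on the DMSO arrays and 11.22 and 11.12 on the CSA arrays. It rose by 2.06 ± 0.10 (4.16-fold, adjusted p = 2.28e-06), and the groups did not overlap, as in 58.1% of all genes tested. Ddit3, which encodes CHOP, read 8.47 and 8.55 against 10.56 and 10.34 and rose by 1.94 ± 0.15. Chac1, an enzyme that breaks down glutathione, rose by 1.91 ± 0.17 from 7.66 and 7.84 to 9.78 and 9.55. Trib3, a pseudokinase that CHOP induces, rose by 1.79 ± 0.20, the lipoprotein receptor gene Vldlr by 1.56 ± 0.18, and the stress-induced chromatin protein gene Nupr1 by 1.31 ± 0.07, the last from 11.99 and 11.91 to 13.22 and 13.29. In each of these genes the arrays of a treatment lay close together and far from those of the other. Atf4 itself, which is controlled largely at translation, rose by 0.41 ± 0.07 (adjusted p = 0.00434). Atf4 lost its call without the intensity trend (adjusted p = 0.0982), and Ddit3 when its probe sets were averaged (0.0678). At day 3, 12 of the 18 were higher under CSA, beside 7.14% of all genes tested. Without the trend 6 were higher at day 6.

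Enzymes that make serine, glycine, asparagine and folate-bound carbon units, many of them known ATF4 targets, rose in 7 of 18 cases and fell in 2, with a median of 0.23. Aldh1l2, a mitochondrial folate enzyme, read 7.94 and 7.81 in DMSO and 9.86 and 9.84 in CSA, a rise of 1.98 ± 0.14 (3.94-fold, adjusted p = 1.77e-05). Its rise at day 3 had been 3.92, and the difference between days was past the threshold (-1.94 ± 0.19, adjusted p = 0.000781). Psph, which makes the last step to serine, rose by 1.27 ± 0.09, and Phgdh and Psat1, the enzymes of the steps before it, by 0.60 ± 0.06 and 0.61 ± 0.06. Mthfd2, of the mitochondrial folate pathway, rose by 0.64 ± 0.08, whereas Mthfd1, its cytosolic counterpart, fell by 0.52 (SE 0.08) from 11.59 and 11.55 to 11.07 and 11.03. By the interaction test the CSA effect on 5 members of this list was lower at day 6, beside 3.43% of all genes tested. Among 14 amino acid transporters, 4 rose and 2 fell, with a median of 0.26. The chains of the large neutral amino acid exchanger moved together: Slc7a5 rose by 0.89 ± 0.11 and its partner Slc3a2 by 0.59 ± 0.08. Slc1a5, a glutamine transporter, read 10.68 and 10.75 in DMSO and 10.03 and 10.17 in CSA, and fell by 0.62 (SE 0.09). The call of Slc1a5 was lost when its probe sets were averaged (adjusted p = 0.21), and those of Mthfd1 and Slc3a2 without the intensity trend (0.0662 and 0.0508). Without DMSO replicate 1, the transporters that rose numbered 2 in place of 4, without the trend 1 transporter rose and 1 fell, and without any array of day 6 in turn 1 synthesis enzyme fell in place of 2.

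The enzymes that load amino acids on transfer RNA rose in 6 of 19 cases, beside 6.41% of all genes tested. None of the 19 fell, and their median was 0.14. Aars, which loads alanine, rose by 0.77 ± 0.12 from 10.97 and 10.90 to 11.57 and 11.84. Nars, for asparagine, rose by 0.57 ± 0.07. This count depended on single arrays: without DMSO replicate 1, DMSO replicate 2, CSA replicate 1 and CSA replicate 2, it was 4, 2, 4 and 3, and without the intensity trend it was 0, where Aars and Nars had adjusted p-values of 0.0805 and 0.0542.

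The promoters of these genes can be read for the element that ATF4 binds with CHOP or C/EBP proteins, searched as TGATGNAA on both strands in the 250 bases before the annotated start (RefSeq, GRCm38.p6). It was present in 2.50% of the 10130 tested genes with a window, in 4 of 17 ATF4 and CHOP regulators (Atf3, Chac1, Nupr1 and Vldlr), in 3 of 12 transfer RNA synthetases (Aars, Gars and Tars), in 3 of 16 synthesis enzymes (Asns, Got1 and Pck2) and in 1 of 10 transporters (Slc7a11). It was held by 3 of 7 risen regulators and 1 of the other 10, by 1 of 6 risen synthesis enzymes and 2 of the other 10, by 0 of 2 risen transporters and 1 of the other 8, and by 2 of 3 risen synthetases and 1 of the other 9. The windows of Chac1 (chr2:119350992-119351241, plus strand) and Aars (chr8:111033592-111033841, plus strand) are shown because both genes rose and both hold 1 match, in capitals, on the strand opposite to the gene.
Chac1: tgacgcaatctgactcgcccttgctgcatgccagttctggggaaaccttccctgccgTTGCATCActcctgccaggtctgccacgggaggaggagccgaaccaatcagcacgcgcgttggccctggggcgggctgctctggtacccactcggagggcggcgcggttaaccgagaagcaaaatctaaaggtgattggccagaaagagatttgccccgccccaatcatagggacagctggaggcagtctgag
Aars: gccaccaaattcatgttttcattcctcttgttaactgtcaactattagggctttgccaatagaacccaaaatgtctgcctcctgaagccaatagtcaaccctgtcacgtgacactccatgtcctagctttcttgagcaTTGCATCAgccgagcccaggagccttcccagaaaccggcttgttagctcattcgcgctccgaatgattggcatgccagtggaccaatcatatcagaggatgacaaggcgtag
The match starts 193 bases before the start of Chac1 and 112 bases before that of Aars. A match describes these letters and no more.

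Chaperones, folding enzymes and degradation factors of the endoplasmic reticulum (ER), where secreted and membrane proteins fold, rose in 16 of 31 cases and fell in none. Their median was 0.31, and 29 of the 31 differences were above 0. Of all genes tested, 6.41% rose. Dnajb9, a co-chaperone of BiP, read 10.41 and 10.28 in DMSO and 11.67 and 11.62 in CSA and rose by 1.30 ± 0.08 (adjusted p = 1.16e-05). Herpud1, of the pathway that removes misfolded proteins from the ER, rose by 1.20 ± 0.08 from 9.99 and 10.01 to 11.25 and 11.14. Smaller rises of bright genes were those of Dnajc3, a co-chaperone that also restrains the kinase PERK (0.68 ± 0.09), Sec61a1, the core of the translocation channel (0.60 ± 0.08), Manf, a secreted stress protein (0.47 ± 0.06), and P4hb, a protein disulfide isomerase (0.46 ± 0.06). The number of risen members was 8, 10, 10 and 11 without DMSO replicate 1, DMSO replicate 2, CSA replicate 1 and CSA replicate 2, and 2 without the intensity trend, where Dnajc3, Manf, P4hb and Sec61a1 had adjusted p-values of 0.0515 to 0.0713. At day 3 the same number of members, 16, was higher under CSA, beside 7.14% of all genes tested.

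The ER stress element, searched as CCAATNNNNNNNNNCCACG on both strands, was rare, at 0.138% of all windows, and was found in 10 of 26 members of the ER list. It was found in 3 of the 12 risen members with a window and in 7 of the other 14. The window of Dnajc3 (chr14:118937682-118937931, plus strand) shows the element in capitals, starting 105 bases before the start.
Dnajc3: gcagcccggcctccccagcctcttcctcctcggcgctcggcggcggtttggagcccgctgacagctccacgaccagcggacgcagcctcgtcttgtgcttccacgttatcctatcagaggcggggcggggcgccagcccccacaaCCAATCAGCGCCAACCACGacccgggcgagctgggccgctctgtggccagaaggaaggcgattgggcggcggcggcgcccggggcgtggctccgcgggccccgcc

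Lysosomal genes rose in 10 of 25 cases, beside 6.41% of all genes tested, and fell in none, with a median of 0.30. Ctsk, a collagen-degrading cathepsin, read 8.96 and 8.91 in DMSO and 10.47 and 10.42 in CSA, a rise of 1.51 ± 0.10 (2.85-fold, adjusted p = 1.17e-05). Gpnmb, a glycoprotein of lysosomes and melanosomes, rose by 1.36 ± 0.16 from 8.31 and 8.06 to 9.58 and 9.52. Ctsl, a broadly expressed cathepsin, rose by 0.74 ± 0.09, Hexa, a subunit of hexosaminidase, by 0.57 ± 0.08, and Atp6v0d1, a subunit of the proton pump, by 0.78 ± 0.08. For Atp6v0d1 the rise was larger than at day 3 by 0.50 ± 0.11 (interaction, adjusted p = 0.0293). The lysosomal element TCACGTGA, which TFEB binds, lay in 5 of 21 windows of the list (3 of 9 risen members and 2 of the other 12) and in 1.72% of all windows. Without CSA replicate 2 or DMSO replicate 2, 6 members were higher, and without the intensity trend 4. Ctsl and Hexa were not past the threshold without the intensity trend (adjusted p = 0.0552 and 0.0571).

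Antioxidant and metal-binding genes, most of them targets of NRF2, rose in 8 of 21 cases and fell in 1. Hmox1, which degrades heme, rose by 1.25 ± 0.17 from 8.59 and 8.38 to 9.62 and 9.85 (adjusted p = 0.000995). Srxn1, which repairs peroxiredoxins, rose by 0.90 ± 0.11, Gclm, a subunit of the enzyme that starts glutathione synthesis, by 0.66 ± 0.09, and the metallothionein gene Mt2 by 0.61 ± 0.10. Fth1, the heavy chain of ferritin, read 13.26 and 13.22 in DMSO and 13.68 and 13.80 in CSA. Its rise of 0.51 ± 0.06 was absent at day 3 (0.02), and the days differed (interaction, adjusted p = 0.0122). From day 3 to day 6 the mean of Fth1 went from 13.62 to 13.24 in DMSO and from 13.64 to 13.74 in CSA. Fth1 and Mt2 lost their calls without the intensity trend (0.0611 and 0.0848). The antioxidant element, TGACNNNGC, was common: 4 of 16 members (3 of 7 risen and 1 of the other 9) and 13.7% of all windows held it. Without the trend 4 members of the list rose and 0 fell.

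Of 20 genes of fatty acid synthesis and storage, 3 rose and 1 fell. Lpl, the lipase that frees fatty acids from lipoproteins, read 8.28 and 8.46 in DMSO and 10.01 and 10.00 in CSA and rose by 1.64 ± 0.14 (3.11-fold, adjusted p = 5.04e-05). Plin2, the coat protein of lipid droplets, rose by 0.91 ± 0.07. Both rises exceeded those of day 3 (0.19 for Lpl and 0.34 for Plin2) by the interaction test, with adjusted p-values of 0.0029 and 0.00896. From day 3 to day 6 the mean of Lpl went from 9.99 to 8.37 in DMSO and from 10.18 to 10.01 in CSA. That of Plin2 went from 11.69 to 11.32 in DMSO and from 12.03 to 12.23 in CSA. Acsl6, which activates long-chain fatty acids, had 1 of the largest falls of all genes: it read 9.87 and 9.76 in DMSO and 6.80 and 7.53 in CSA and fell by 2.65 (SE 0.19). It fell by 1.71 when its probe sets were averaged.

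**Figure D2:**
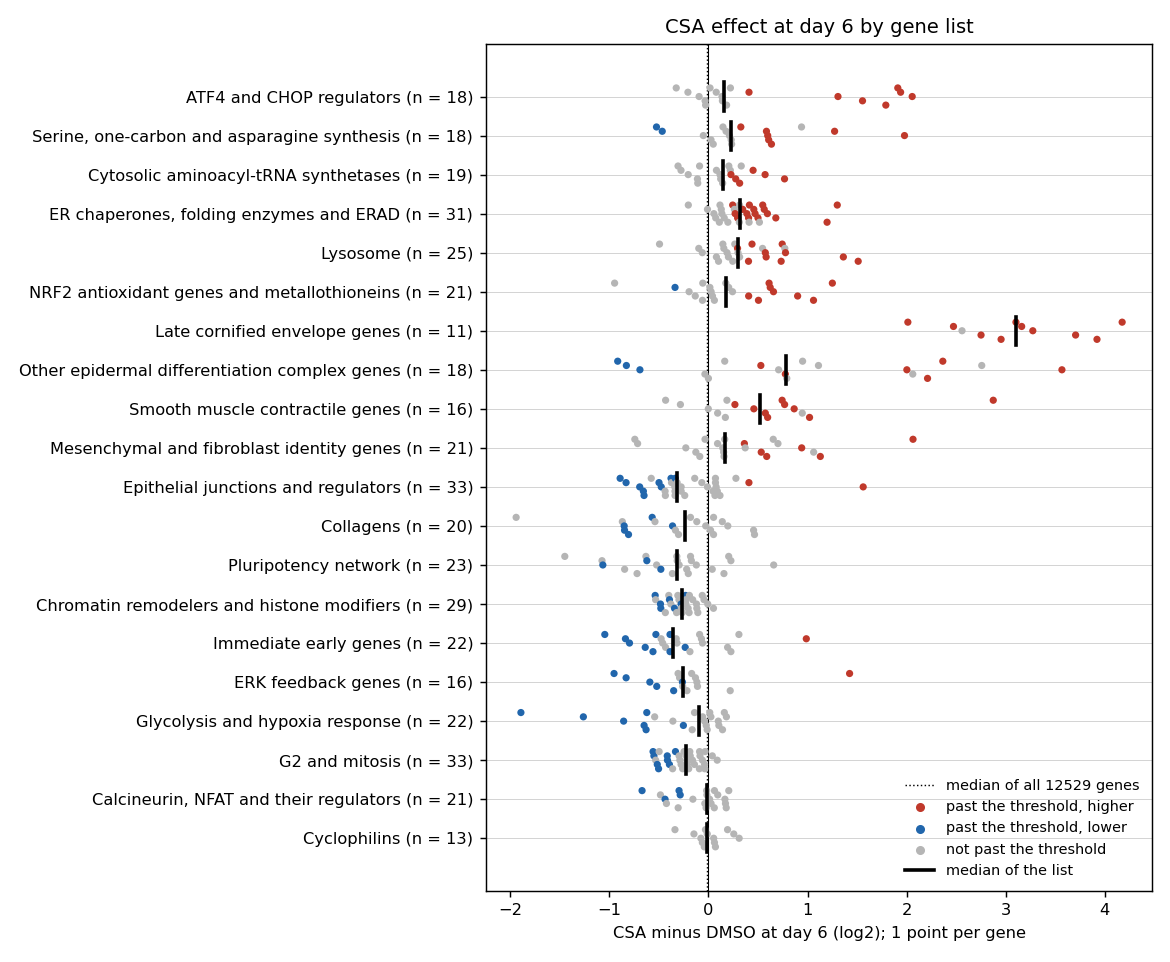
CSA minus DMSO at day 6 (log2, horizontal axis) for the tested members of 20 gene lists, 1 point per gene; red and blue mark genes past the threshold, black bars the list medians, and the dotted line the median of all genes. All 11 late cornified envelope genes lie at or above 2.01, the ER list has no fallen member, and no cyclophilin is past the threshold.

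The late cornified envelope (LCE) genes lie side by side in the epidermal differentiation complex and encode small proteins that are cross-linked under the surface of cornifying keratinocytes. Of the 11 past the filter, 10 rose and 0 fell, and the median difference was 3.10. Lce3c passed the filter only through the CSA arrays of day 6: its mean over the other 6 arrays was 5.14, below the 5.37 of the filter, whereas the means of the other 10 were 5.42 to 7.46. The filter thus favours members that were high under CSA, and the count and the median are given as a description. On the CSA arrays these 11 genes read 7.475 to 10.09, and on the DMSO arrays 3.96 to 7.864. They had been as low at day 3, at 3.518 to 8.061 over the arrays of both treatments, when 0 of the 11 were called. Lce1d read 5.65 and 6.60 in DMSO and 10.09 and 10.00 in CSA, a rise of 3.92 ± 0.31 (15.1-fold, adjusted p = 2.92e-05). Lce1a1 rose by 3.16 ± 0.26 from 6.85 and 6.54 to 9.78 and 9.94. Lce1f rose by 3.27 ± 0.34, Lce3a by 3.10 ± 0.46, Lce1a2 by 2.95 ± 0.40, Lce3f by 2.75 ± 0.43, Lce1b by 2.47 ± 0.44 and Lce3b by 2.01 ± 0.30. All CSA arrays lay above all DMSO arrays in these genes, and the treatments did not overlap in 58.1% of all genes tested. Lce3c read 7.43 and 3.96 in DMSO and 9.87 on both CSA arrays, so its rise of 4.18 ± 0.96 rests on the lower DMSO array: without DMSO replicate 2 it was 2.44 (adjusted p = 0.115). Lce1h, whose DMSO arrays also lay apart (4.76 and 6.42 against 9.46 and 9.13), rose by 3.71 ± 0.80. Lce1i read 5.06 and 6.84 against 8.69 and 8.33, a difference of 2.56 ± 0.84 that did not pass the threshold (adjusted p = 0.0842).

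The probe sets of 6 of the 11 end in _x_at, a suffix for probes that can read several near-identical genes, so single LCE genes cannot be told apart with certainty and the members are not independent. The other LCE genes on the arrays, Lce1c, Lce1g, Lce1l and Lce1m, were below the filter, with differences of 0.804 to 5.718 and no overlap between treatments. They were not tested, and of the genes that were, 58.1% had no overlap. Leaving out DMSO replicate 1, DMSO replicate 2, CSA replicate 1 and CSA replicate 2 left 9, 9, 8 and 7 LCE genes called, and 7 were called without the trend. Lce3c was also lost without CSA replicate 1 (adjusted p = 0.0876), without CSA replicate 2 (0.101) and without the intensity trend (0.153). Lce1h was lost without DMSO replicate 1 (0.115), CSA replicate 1 (0.0771), CSA replicate 2 (0.0667) and the trend (0.147), Lce1b without CSA replicate 2 (0.0696) and Lce3b without the trend (0.0552). By the interaction test 5 LCE genes responded more to CSA at day 6 than at day 3, beside 2.36% of all genes tested.

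Other genes of the complex moved in both directions, 6 of 18 up and 3 down, with a median of 0.78. Among them Sprr2h, which was not called, passed the filter only through the CSA arrays of day 6. Crct1, which lies within the LCE cluster in the RefSeq order of GRCm38.p6, read 9.60 and 9.59 in DMSO and 11.49 and 11.70 in CSA and rose by 2.00 ± 0.14 (adjusted p = 1.87e-05). Sprr1a, a small proline-rich precursor of the envelope, rose by 0.78 ± 0.12 from 10.11 and 10.16 to 10.84 and 10.98. Rptn, an envelope protein of the S100-fused type, rose by 2.21 ± 0.33. Ivl, the envelope scaffold involucrin, which was named after its values were seen, read 5.30 and 6.68 against 8.14 and 8.57. Sprr1b read 5.24 and 1.84 against 7.08 and 7.13, and its difference of 3.57 ± 0.80 was 1.87 without DMSO replicate 2. Its means at day 3 were 7.18 in DMSO and 7.46 in CSA. The 3 falls were all S100 genes, calcium-binding proteins at the edge of the complex. S100a16 fell by 0.92 (SE 0.06) from 12.98 on both DMSO arrays to 12.11 and 12.03, S100a14 by 0.83 (SE 0.13) and S100a3 by 0.69 (SE 0.11). The cornified envelope members and these S100 members of 1 chromosomal cluster moved apart. No array of a treatment overlapped the other in either set of named genes, as in 58.1% of all genes tested. S100a14, S100a3 and Ivl lost their calls without the trend (adjusted p = 0.06, 0.0603 and 0.0723), Rptn when probe sets were averaged (difference 1.27, 0.0998), and Sprr1b without the trend (0.139), with CSA replicate 1 (0.072) or 2 (0.0872) left out, and with the arrays of day 6 alone (0.0505). Sprr1b moved to 1.77 with a pseudocount of 32 and to 1.99 with signals floored at a log2 of 5. Without CSA replicate 1 or 2, 4 members rose in place of 6, and without the trend 4 rose and 1 fell.

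**Figure D3:**
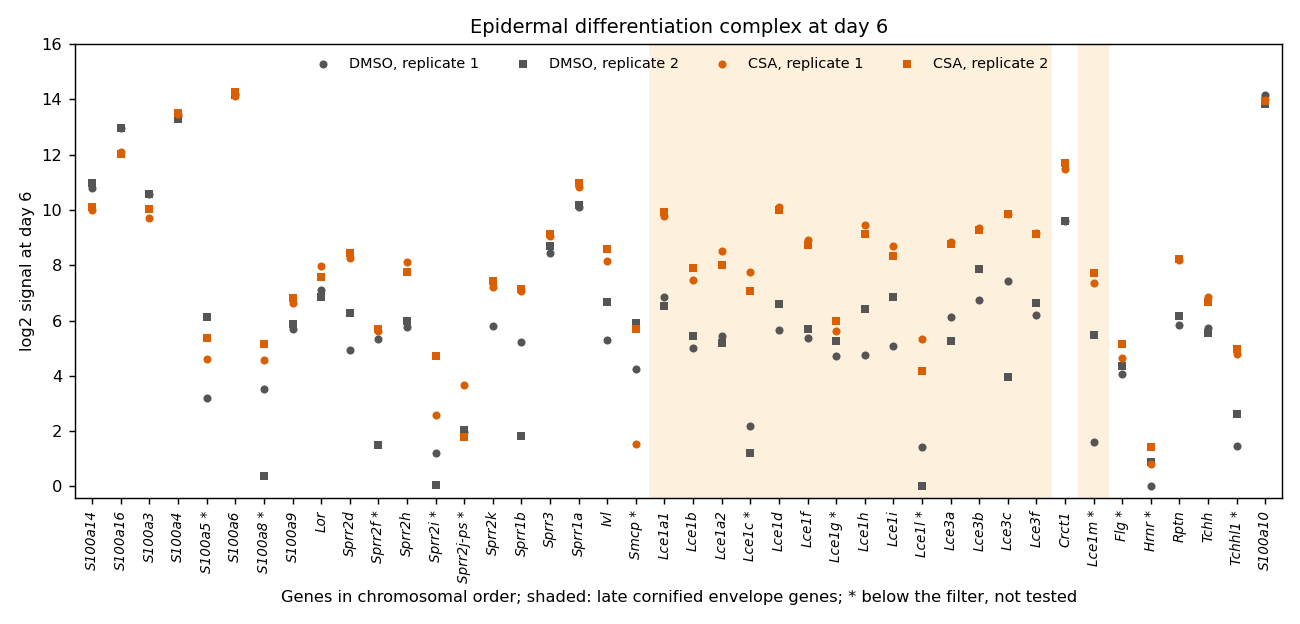
Log2 signals (vertical axis) on the 4 arrays of day 6 for 42 genes of the epidermal differentiation complex in chromosomal order (horizontal axis); grey, DMSO; orange, CSA; circles and squares, replicates 1 and 2; shaded, LCE genes; asterisks, genes below the filter. CSA points stand above DMSO points throughout the LCE block and for Crct1, and below them for S100a14, S100a16 and S100a3.

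The promoters of these neighbours were read for the site of AP-1, a factor of activated keratinocytes. The AP-1 site, TGANTCA on both strands, lay in 9 of 15 windows of the other genes of the complex (4 of 5 risen members and 5 of the other 10) and in 0 of 10 LCE windows, against 5.73% of all windows. Some stretches can match both this motif and the antioxidant element. The windows of Sprr1a (chr3:92485882-92486131, minus strand) and Lce1d (chr3:92687211-92687460, minus strand) show the contrast among genes that rose together. The capitals in Sprr1a mark its 2 matches, which start 146 and 116 bases before the start; Lce1d has none.
Sprr1a: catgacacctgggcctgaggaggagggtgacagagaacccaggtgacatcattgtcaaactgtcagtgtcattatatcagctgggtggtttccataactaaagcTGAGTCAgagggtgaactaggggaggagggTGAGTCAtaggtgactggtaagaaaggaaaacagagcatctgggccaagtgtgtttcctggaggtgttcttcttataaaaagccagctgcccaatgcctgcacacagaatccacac
Lce1d: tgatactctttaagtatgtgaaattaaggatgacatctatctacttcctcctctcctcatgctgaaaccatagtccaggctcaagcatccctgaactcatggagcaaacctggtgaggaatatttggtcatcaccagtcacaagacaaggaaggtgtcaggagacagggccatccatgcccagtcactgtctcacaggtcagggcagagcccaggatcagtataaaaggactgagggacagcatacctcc

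Cornified envelope genes are keratinocyte genes, so the defining keratinocyte markers were read beside them. Their summed signal over 6 markers was 3970 and 3700 in DMSO and 5060 and 5080 in CSA. Krt14, a keratin of the basal layer, read 11.75 and 11.62 against 11.96 and 11.89 and did not pass the threshold, and Krt5 and Trp63 were below the filter. Krt1, a keratin of the upper epidermis, rose by 1.62 ± 0.27 from 7.57 and 7.52 to 9.03 and 9.29. Whether cells of a keratinocyte type account for the rises was not tested. Of 14 keratins, 2 rose and 3 fell. Krt6a, a keratin of wounded and activated epidermis, rose by 1.66 ± 0.12 from 8.88 and 8.79 to 10.47 and 10.52 (adjusted p = 1.95e-05). Krt13, a keratin of moist stratified epithelia, fell by 1.0 (SE 0.12). Krt8 and Krt19, keratins of simple epithelia, fell by 0.53 (SE 0.06) and 0.62 (SE 0.11), the former from 14.49 and 14.35 to 13.91 and 13.87. Krt18, also a keratin of simple epithelia, stood higher under CSA, at 9.53 and 9.46 against 9.87 and 9.89, and did not pass the threshold. Among 20 cornification enzymes and regulators, 2 rose and 3 fell. Asprv1, a protease that processes filaggrin and was on neither list, read 10.21 and 10.37 in DMSO and 12.30 and 12.17 in CSA and rose by 1.94 ± 0.10 (3.84-fold, adjusted p = 2.28e-06). Klk6 rose by 1.88 ± 0.37 and Klk8 fell by 0.73 (SE 0.12), both kallikrein proteases. Averaging probe sets took Krt13 to -1.53. Krt8, Krt1, Krt19 and Klk6 lost their calls without the trend (adjusted p = 0.0598 to 0.0956), and Klk6 also without DMSO replicate 1 (0.0689) and CSA replicate 2 (0.0819). Without DMSO replicate 1 no cornification enzyme was higher and 1 was lower, and without any other array of day 6, 1 was higher and 1 lower. Without the trend 1 keratin rose and 1 fell, and 0 cornification enzymes rose and 2 fell.

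Genes of epithelial junctions, which reprogramming cells acquire, were lower under CSA in 9 of 33 cases and higher in 2, with a median of -0.32. The differences ran from -0.89 to 1.56, and 10 of the 33 were above 0, so the list did not move as 1. The genes given below are from the falls. Cdh1, E-cadherin, read 13.17 and 13.12 in DMSO and 12.71 and 12.58 in CSA, a fall of 0.50 (SE 0.07, adjusted p = 0.000879). St14, the membrane protease matriptase, fell by 0.83 (SE 0.09) from 11.89 and 11.92 to 11.01 and 11.13, and Spint2, its inhibitor, by 0.65 (SE 0.08) from 13.15 and 13.16 to 12.53 and 12.48. Epcam, an epithelial adhesion molecule, fell by 0.69 (SE 0.14) from 11.03 and 11.01 to 10.21 and 10.44. For these 4 genes the lowest DMSO array stood above the highest CSA array, and treatments did not overlap in 58.1% of all genes tested. At day 3 the list had the opposite sign: 14 members were higher under CSA and 1 lower, with a median of 0.41. Among all genes tested, 7.14% were higher at day 3 and 5.52% lower. By the interaction test 12 members had a lower CSA effect at day 6 than at day 3, beside 3.43% of all genes tested. In this test the effect was lower for St14 by 1.43 (SE 0.13, adjusted p = 0.000781) and for Cdh1 by 0.79 (SE 0.09, 0.00171). With each array of day 6 left out in turn, the fallen members were 4, 4, 5 and 6, and 0 rose, and without the trend 3 fell and 0 rose. Epcam lost its call without DMSO replicate 1 (0.0708), DMSO replicate 2 (0.0702), CSA replicate 1 (0.0743) and the trend (0.103), and Cdh1 without the trend (0.0635).

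Of 21 mesenchymal and fibroblast genes, 6 rose and 0 fell, with a median of 0.17. Cdh2, N-cadherin, the counterpart of Cdh1 in mesenchymal cells, read 10.30 and 10.34 in DMSO and 11.45 and 11.44 in CSA and rose by 1.13 ± 0.08 (2.19-fold, adjusted p = 1.95e-05). Its difference at day 3 had been 0.08, and the days differed (1.05 ± 0.12, adjusted p = 0.00123). Ddr2, a collagen receptor, rose by 0.94 ± 0.08, Snai2, a repressor of epithelial genes, by 0.59 ± 0.12, and Vim, the intermediate filament protein vimentin, by 0.36 ± 0.07 from 14.28 and 14.18 to 14.66 and 14.53. The fibroblast surface marker Thy1 read 10.33 and 10.34 against 10.34 and 10.27, and Snai1, a further repressor of epithelial genes, 6.24 and 6.64 against 6.22 and 6.20, and neither passed the threshold. When each array of day 6 was left out, 3, 3, 4 and 3 members rose, and without the trend 2. Vim was lost without DMSO replicate 2 (adjusted p = 0.0682) and the trend (0.139). Snai2 was lost without DMSO replicate 1 (0.0534), DMSO replicate 2 (0.0664), CSA replicate 2 (0.0664), the trend (0.0692) and its shared-sequence probe set (0.315).

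Smooth muscle contractile genes, which the factor SRF drives with its co-activator MRTF, rose in 9 of 16 cases and fell in none, and their median of 0.52 was -0.06 at day 3. Tagln (SM22) read 10.67 and 10.50 in DMSO and 11.55 and 11.65 in CSA and rose by 1.02 ± 0.10 (2.03-fold, adjusted p = 1e-04). Acta2, smooth muscle actin, rose by 0.74 ± 0.08 from 12.11 and 12.04 to 12.81 and 12.83. Cnn2, a calponin, rose by 0.60 ± 0.07 from 11.65 and 11.70 to 12.22 and 12.32. Actg2, the enteric smooth muscle actin, rose by 0.77 ± 0.10, Myl9, a myosin light chain shown for its promoter and named after its values were seen, by 0.87 ± 0.15, and Tpm2, a tropomyosin, by 0.57 ± 0.08. Des, the muscle intermediate filament desmin, was dim in DMSO (4.40 and 4.93) and read 7.44 and 7.65 in CSA, a rise of 2.87 ± 0.39. Its means at day 3 were 6.95 in DMSO and 6.72 in CSA, so the DMSO signal was lower at day 6 than at day 3. In all 7 of these genes the CSA arrays lay above the DMSO arrays, and treatments did not overlap in 58.1% of all genes tested. The CSA effect on 10 members was higher at day 6 than at day 3 by the interaction test, beside 2.36% of all genes tested. Tpm2 was lost without the trend (adjusted p = 0.0673) and without its shared-sequence probe set (0.488). Without the trend 6 members rose. The summed signal of the 4 defining muscle markers was 139 and 129 in DMSO and 151 and 182 in CSA, and Myod1, Myog and Actc1 were below the filter. The wider list of 10 skeletal and cardiac muscle genes, which holds Des, summed to 1580 and 1710 in DMSO and 1480 and 1830 in CSA. Of its 4 tested genes, Des and the skeletal actin gene Acta1 were higher and the troponin gene Tnnt2 was lower, and the part of muscle cells in these rises was not tested.

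The SRF site known as the CArG box, searched on both strands, lay in 4 of 14 windows of the list (Cnn2, Myl9, Vcl and Srf) and in 1.35% of all windows; it was held by 3 of the 7 risen members with a window and by 1 of the other 7. The windows of Myl9 (chr2:156775214-156775463, plus strand) and Cnn2 (chr10:79988350-79988599, plus strand) show the box in capitals, starting 161 and 56 bases before the start, in 2 genes that rose.
Myl9: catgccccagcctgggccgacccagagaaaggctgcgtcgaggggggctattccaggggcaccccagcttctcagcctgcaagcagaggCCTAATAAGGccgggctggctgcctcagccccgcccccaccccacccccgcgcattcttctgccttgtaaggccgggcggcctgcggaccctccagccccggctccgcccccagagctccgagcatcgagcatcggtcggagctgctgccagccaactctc
Cnn2: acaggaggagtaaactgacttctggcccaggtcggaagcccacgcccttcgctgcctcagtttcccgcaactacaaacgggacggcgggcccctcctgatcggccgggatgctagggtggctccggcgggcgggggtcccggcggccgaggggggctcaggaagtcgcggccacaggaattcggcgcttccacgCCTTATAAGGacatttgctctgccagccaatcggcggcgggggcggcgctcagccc

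Genes of the extracellular matrix moved in both directions. Of 20 collagens, 5 fell and 0 rose, with a median of -0.24: Col3a1 fell by 0.85 (SE 0.08) from 12.69 and 12.68 to 11.90 and 11.77, Col6a1 fell by 0.81 (SE 0.09) and Col6a2 fell by 0.85 (SE 0.13). Col1a1 and Col1a2, the chains of the main fibrillar collagen, read 10.44 and 10.42 against 10.06 and 10.20, and 13.35 and 13.37 against 13.16 and 13.20, and neither passed the threshold. Of 28 matrix glycoproteins and remodelling enzymes, 8 rose and 4 fell. Postn, the matrix protein periostin, read 9.68 and 9.76 in DMSO and 7.08 and 7.21 in CSA, a fall of 2.57 (SE 0.28, 5.95-fold, adjusted p = 0.000298). Its difference at day 3 was 0.76, and the days differed by -3.33 ± 0.40 (interaction, adjusted p = 0.00182). Postn had means of 5.81 in DMSO and 6.56 in CSA at day 3, so both treatments stood higher at day 6. Mmp3, a matrix metalloproteinase, fell by 1.80 (SE 0.40) from a mean of 9.97 in DMSO to 8.18 in CSA. Its day 3 means were 4.91 in DMSO and 5.31 in CSA. Timp2, an inhibitor of such enzymes, rose by 0.84 ± 0.06 from 12.62 and 12.60 to 13.43 and 13.48. Fbln5, which organises elastic fibres, rose by 1.26 ± 0.10 and Lox, which cross-links collagen and elastin, by 0.96 ± 0.09. Leaving out DMSO replicate 1, DMSO replicate 2, CSA replicate 1 and CSA replicate 2 left 4, 3, 3 and 4 collagens lower, and 4, 3, 5 and 3 matrix genes higher with 1, 1, 3 and 2 lower. Without the trend 3 collagens fell, and 3 matrix genes rose and 1 fell. Mmp3 lost its call without DMSO replicate 1 (0.0895), DMSO replicate 2 (0.121), CSA replicate 2 (0.108) and the trend (0.106), and Col3a1 without its shared-sequence probe set (0.0507).

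**Figure D4:**
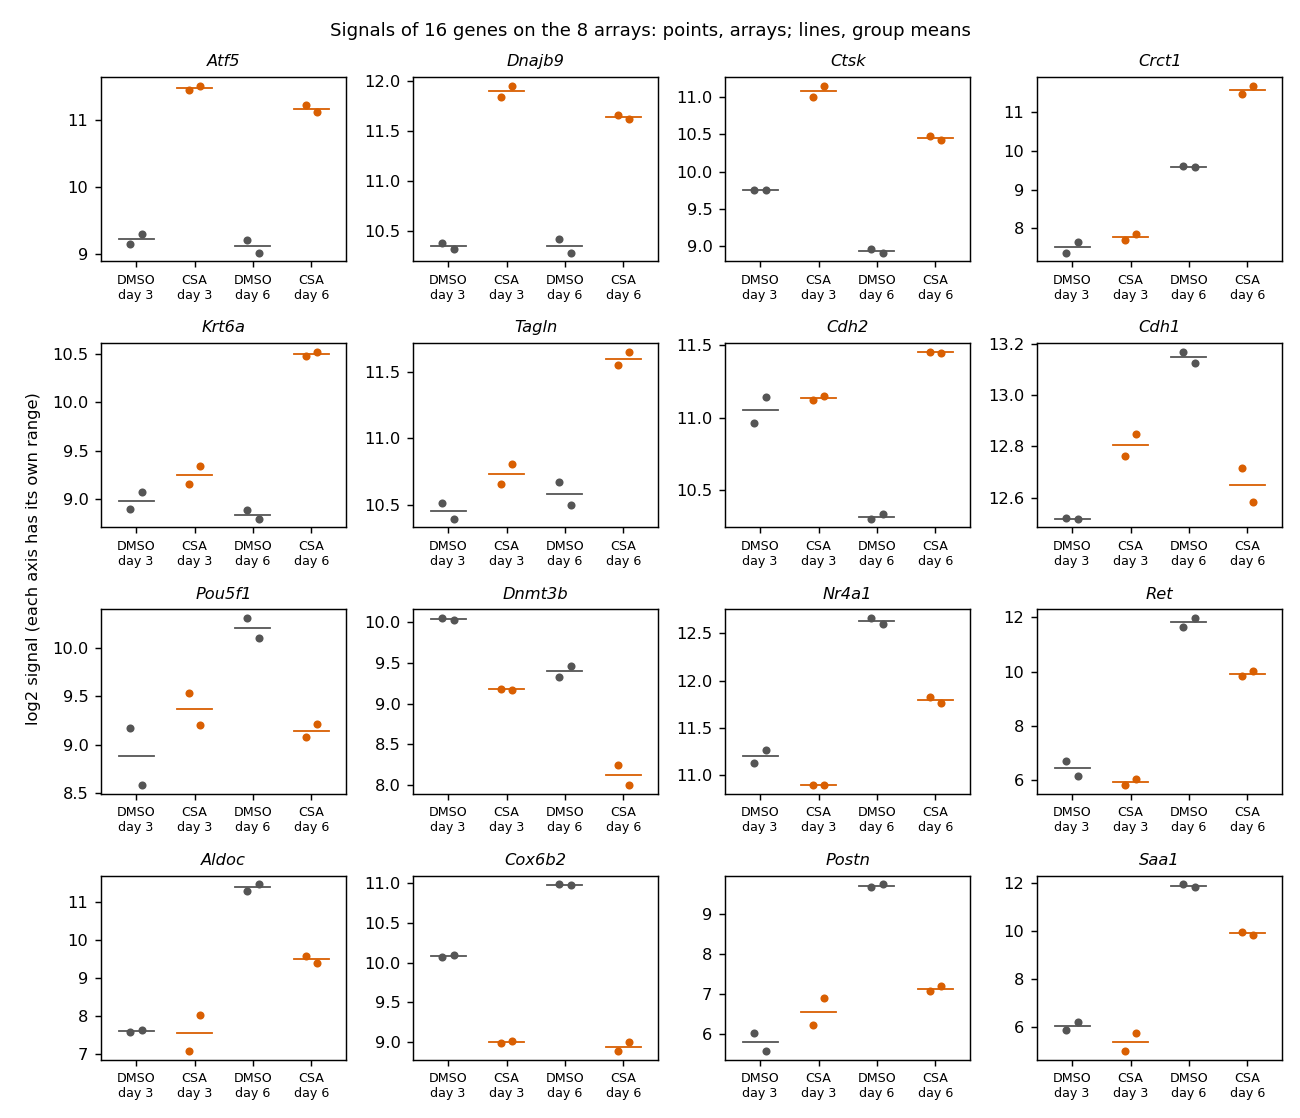
Log2 signals (vertical axes, each with its own range) of 16 named genes on the 8 arrays, in the order DMSO day 3, CSA day 3, DMSO day 6, CSA day 6; points are arrays and lines group means, grey for DMSO and orange for CSA. Atf5 is raised by CSA on both days, whereas Crct1, Krt6a, Cdh2, Ret, Aldoc and Postn differ between treatments mainly at day 6.

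Of 23 tested genes of the pluripotency network, 3 fell and 0 rose, with a median of -0.32 that was -0.000274 at day 3. Pou5f1 read 10.31 and 10.10 in DMSO and 9.08 and 9.21 in CSA, a fall of 1.07 (SE 0.18, 2.09-fold, adjusted p = 0.00435). Its groups did not overlap, as in 58.1% of all genes tested. The cells carry Oct4 as a transgene as well, and whether the probe set reads the endogenous gene, the transgene or both is not given in the sources used here. Klf4 and Myc, of the same set of factors, read 10.49 and 10.19 against 10.59 and 10.51, and 11.41 and 11.37 against 11.26 and 11.17, with differences of 0.20 ± 0.11 and -0.18 ± 0.08 that did not pass the threshold. L1td1, an RNA-binding protein of pluripotent cells, fell by 0.48 (SE 0.07), and Fgf4, a growth factor that Oct4 and Sox2 activate, by 0.62 (SE 0.13). Alpl, alkaline phosphatase, a surface marker of reprogramming, read 6.55 and 6.50 against 6.10 and 6.71, after a rise of 1.92 at day 3; the days differed by -2.04 ± 0.41 (adjusted p = 0.0211). Nanog read 7.51 and 7.57 in DMSO and 7.20 and 6.21 in CSA, and Sox2 4.49 and 4.46 against 5.78 and 5.73; neither was tested, as their means over the 8 arrays were below the filter. Pou5f1 and L1td1 lost their calls without the trend (0.0822 and 0.0826), and Fgf4 without DMSO replicate 1 (0.104), CSA replicate 1 (0.0652) and the trend (0.06). Without DMSO replicate 1, 2 members fell, without DMSO replicate 2, 4, and without the trend 0.

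Among 12 enzymes of DNA methylation and demethylation, 4 fell and 1 rose. Dnmt3b, a de novo methyltransferase, read 9.33 and 9.47 in DMSO and 8.25 and 8.0 in CSA, a fall of 1.27 (SE 0.13, 2.42-fold, adjusted p = 0.000154). Tet2, which oxidises methylated cytosine, fell by 0.52 (SE 0.09) against DMSO at day 6, after a difference of 0.40 at day 3. The days differed by -0.92 ± 0.13 (interaction, adjusted p = 0.00323). From day 3 to day 6 its mean went from 10.88 to 11.84 in DMSO and from 11.28 to 11.32 in CSA. Gadd45a and Gadd45b, stress-induced proteins linked to demethylation, moved apart: Gadd45a rose by 0.93 ± 0.15 and Gadd45b fell by 0.79 (SE 0.10). Chromatin remodelers and histone modifiers fell in 7 of 29 cases, beside 6.11% of all genes tested, and rose in none. Their median was -0.26, and 1 of the 29 differences was above 0. Hdac1, a histone deacetylase, fell by 0.48 (SE 0.07) from 12.74 and 12.66 to 12.30 and 12.14, and Kdm1a, a histone demethylase, by 0.34 (SE 0.07). This count was 4, 1, 3 and 4 without DMSO replicate 1, DMSO replicate 2, CSA replicate 1 and CSA replicate 2, and 0 without the trend. Of the methylation enzymes, 2 fell and 1 rose without it. Tet2, Hdac1 and Kdm1a were lost without the trend (adjusted p = 0.0877, 0.0795 and 0.143), and Kdm1a also without DMSO replicate 2 (0.112), CSA replicate 1 (0.0647) and its shared-sequence probe set (0.081).

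Immediate early genes, which growth factors and calcium switch on within minutes, fell in 9 of 22 cases and rose in 1, with a median of -0.36. Nr4a1, an orphan nuclear receptor that calcineurin signalling is known to induce in lymphocytes, read 12.66 and 12.60 in DMSO and 11.83 and 11.76 in CSA and fell by 0.84 (SE 0.07, adjusted p = 6.8e-05). Ier2 fell by 0.56 (SE 0.08) and Jun, a component of AP-1, by 0.53 (SE 0.09) from 11.91 and 11.82 to 11.38 and 11.29. The exception was Fosl1, a partner of Jun in AP-1, which rose by 0.99 ± 0.13 from 8.58 and 8.23 to 9.47 and 9.31. ERK feedback genes, induced by the MAP kinase pathway, fell in 6 of 16 cases and rose in 1, with a median of -0.26: Phlda1 fell by 0.52 (SE 0.08) and the transcription factor Etv5 by 0.83 (SE 0.16), while Dusp10, a phosphatase of the stress kinases, rose by 1.42 ± 0.22. Of the immediate early genes, 6 had a lower CSA effect at day 6 than at day 3, beside 3.43% of all genes tested. In Jun the sign turned, from a rise of 0.37 at day 3, and the days differed by -0.90 ± 0.13 (adjusted p = 0.00401). In the same order of left-out arrays, 3, 4, 4 and 3 immediate early genes and 2, 1, 2 and 2 ERK feedback genes were lower. Without the trend 1 immediate early gene fell and 1 rose, and 0 ERK feedback genes fell and 1 rose. Ier2, Jun, Phlda1 and Etv5 were lost without the trend (0.0603 to 0.121), and Etv5 without DMSO replicate 2 (0.0816) and CSA replicate 2 (0.0537).

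Ret, the receptor kinase for ligands of the GDNF family, was among the largest falls of a bright gene: it read 11.64 and 11.97 in DMSO and 9.84 and 10.01 in CSA, a fall of 1.88 (SE 0.21, 3.69-fold, adjusted p = 0.000279). Its day 3 means were 6.44 in DMSO and 5.93 in CSA, so both treatments stood higher at day 6. Wif1, a secreted Wnt inhibitor, fell by 1.23 (SE 0.19) and was 1 of 5 fallen genes among 18 of Wnt signalling, of which 0 rose. Tgfb3, a ligand, fell by 0.90 (SE 0.19) and was 1 of 3 fallen genes among 18 of TGF-beta signalling, of which 1 rose. As each array was left out, the fallen Wnt genes numbered 3, 1, 4 and 1 and the fallen TGF-beta genes 1, 1, 2 and 1, and without the trend 1 fell in each list. Tgfb3 was lost without DMSO replicate 1 (adjusted p = 0.0575), DMSO replicate 2 (0.0879), CSA replicate 2 (0.0836) and the trend (0.0573).

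Genes of glycolysis and of the hypoxia response fell in 7 of 22 cases and rose in none. Their median was -0.10. Aldoc, an aldolase, read 11.30 and 11.47 in DMSO and 9.58 and 9.40 in CSA and fell by 1.89 (SE 0.24, 3.71-fold, adjusted p = 0.000674). Its day 3 means were 7.6 in DMSO and 7.5 in CSA. Eno3, an enolase, fell by 1.26 (SE 0.09), Slc2a1, the glucose transporter GLUT1, by 0.62 (SE 0.07) from 13.03 and 13.02 to 12.43 and 12.38, Egln3, an oxygen-sensing hydroxylase, by 0.86 (SE 0.11), and Pdk1, which keeps pyruvate out of mitochondria, by 0.65 (SE 0.11). Aldoc, Egln3 and Pdk1 had differences of -0.06, -0.17 and -0.03 at day 3, with interaction adjusted p-values of 0.0141, 0.0376 and 0.043, whereas Eno3 and Slc2a1 had fallen at day 3 too. Fbp2, an enzyme of gluconeogenesis outside the list, fell by 1.70 (SE 0.13) from 10.20 and 10.30 to 8.47 and 8.63. Oxidative phosphorylation genes fell in 6 of 27 cases and rose in 1. Cox6b2, the testis isoform of a cytochrome oxidase subunit, read 10.98 and 10.97 in DMSO and 8.89 and 9.0 in CSA, a fall of 2.03 (SE 0.10, 4.09-fold, adjusted p = 2.28e-06), larger than at day 3 (interaction -0.96 ± 0.14, adjusted p = 0.00448). With each array of day 6 left out in turn, the fallen oxidative phosphorylation genes were 1, 1, 1 and 2. Without the trend 1 fell and 0 rose, and 5 genes of glycolysis and hypoxia fell.

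Cell cycle genes were lower under CSA at day 3 more widely than at day 6. Of 33 genes of G2 and mitosis, 8 fell and 0 rose at day 6 (median -0.22), against 25 lower at day 3 (median -0.62), and the CSA effect was higher at day 6 for 9 by the interaction test. Among all genes tested, 6.11% were lower at day 6 and 5.52% at day 3, and 2.36% had a higher effect at day 6. Of 31 DNA replication genes, 3 fell at day 6 (median -0.09) and 18 at day 3 (median -0.54), and 8 had a higher effect at day 6. Cdc20, an activator of the anaphase-promoting complex, fell by 0.52 (SE 0.07) from 12.96 and 13.11 to 12.50 and 12.55. Gins1, a subunit of the replicative helicase, fell by 0.50 (SE 0.11), and Cdkn2b, an inhibitor of the G1 kinases CDK4 and CDK6, rose by 0.77 ± 0.09 from 10.32 and 10.17 to 10.97 and 11.05. When each array of day 6 was left out, 3, 3, 5 and 4 mitotic genes and 0, 1, 1 and 0 replication genes were lower, and without the trend 0 mitotic genes and 1 replication gene. Cdc20 was lost without the trend (adjusted p = 0.0632) and with averaged probe sets (0.0712), and Gins1 without DMSO replicate 1 (0.0738), DMSO replicate 2 (0.0819) and CSA replicate 2 (0.062).

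Among 9 acute-phase and innate defence genes, 3 rose and 1 fell. The fall was that of Saa1, serum amyloid A, from 11.96 and 11.83 to 9.97 and 9.84, by 1.99 (SE 0.23, 3.96-fold, adjusted p = 0.000426). Saa1 had means of 6.06 in DMSO and 5.37 in CSA at day 3. Apcs, serum amyloid P, had a difference of 3.48 ± 0.48 at very dim signals (3.07 and 2.02 against 6.59 and 5.47). Its means at day 3 were higher, at 7.83 in DMSO and 8.99 in CSA. Of 18 chemokines and cytokines, 3 rose and 0 fell, among them Il1rn, the interleukin 1 receptor antagonist (1.21 ± 0.19), and Csf1, the growth factor of macrophages (1.0 ± 0.14). Of 10 Ly6 genes, small surface or secreted proteins, 2 rose: Slurp1, a keratinocyte product, by 0.64 ± 0.07 from 12.58 and 12.50 to 13.15 and 13.20, and Ly6i by 3.27 ± 0.48 from 3.76 and 3.67 to 6.98 and 7.0. Ly6i had means of 6.70 in DMSO and 5.89 in CSA at day 3. Apcs moved to 1.37 with a pseudocount of 32 and 1.03 with signals floored at a log2 of 5 (adjusted p = 0.0867), and was lost with the arrays of day 6 alone (0.109); Ly6i moved to 1.82 and 1.99 under the same pseudocount and floor. Csf1 was lost with averaged probe sets (0.128). Without DMSO replicate 1 or CSA replicate 2, 1 acute-phase gene rose, and without DMSO replicate 2, CSA replicate 1 or CSA replicate 2, 2 cytokines rose. Without the trend 2 acute-phase genes and 2 cytokines rose.

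The genes of the pathway on which CSA acts were read as well. Of 21 genes for calcineurin, NFAT and their regulators, 4 fell, beside 6.11% of all genes tested, and 0 rose, with a median of -0.02, and the other 17 had differences from -0.48 (Nfatc2) to 0.21 (Lrrk2). The calcineurin subunits Ppp3ca, Ppp3cb and Ppp3r1 read 11.42 and 11.39 against 11.52 and 11.48, 10.54 and 10.74 against 10.73 and 10.50, and 11.33 and 11.30 against 11.29 and 11.40. Rcan1, an inhibitor of calcineurin and a known NFAT target used as a readout of the pathway, fell by 0.28 (SE 0.07, adjusted p = 0.0242) from 11.65 and 11.55 to 11.31 and 11.32. Rcan3, of the same family, fell by 0.67 (SE 0.18, 0.041), Nfatc4, an NFAT factor, by 0.44 (SE 0.11, 0.0254), and Homer2, a scaffold that competes with calcineurin for NFAT, by 0.30 (SE 0.07, 0.0294). These calls depended on single arrays: without DMSO replicate 1, DMSO replicate 2, CSA replicate 1 and CSA replicate 2, 0, 0, 1 and 0 members were lower, and without the trend 0. Rcan1, Rcan3 and Nfatc4 were each lost without any of the 4 arrays of day 6 (adjusted p = 0.064 to 0.184) and without the trend (0.157, 0.064 and 0.116); Homer2 was lost without DMSO replicate 1 (0.0507), DMSO replicate 2 (0.218), CSA replicate 2 (0.172) and the trend (0.188). Averaged probe sets ended the calls of Rcan1 (0.0725) and Nfatc4 (0.0801), no filter (0.0604) and the replicate block (0.0631) that of Rcan3, and the loss of its shared-sequence probe set that of Nfatc4 (0.369); the difference of Homer2 was -0.59 without its own. Known NFAT targets passed the filter in 7 cases, of which Ctsk rose and Rcan1 fell. None of 13 cyclophilins passed the threshold in limma, with differences from -0.34 (Ppie) to 0.31 (Ppil3) and adjusted p-values of at least 0.0746; 1 was lower without CSA replicate 1. Ppib, of the ER, read 13.12 and 13.07 against 13.12 and 13.21, and Ppia, cyclophilin A, was not read here, as its probe sets carry several symbols.

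Of 15 imprinted growth genes 5 rose and 3 fell, of 20 integrin and focal adhesion genes 4 rose, and of 24 Hox genes, 28 proteasome genes and 19 cholesterol synthesis genes 3 rose each, with 0 falls in these 4 lists. Of 22 interferon-response genes 2 rose and 0 fell, with a median of 0.57. Of these 22, 4 (Ifit3, Oas2, Rtp4 and Gbp2) passed the filter only through the CSA arrays of day 6, and 1 of the 4 was called higher. The filter thus favours members high under CSA, and this count and median are a description. Of 18 heat shock genes 2 rose and 0 fell. Of 16 G1 regulators 3 rose and 1 fell, of 18 p53 genes 3 rose and 2 fell, of 12 EGF family genes 1 rose, and of 11 histone genes 1 rose and 3 fell. Of 19 genes of BMP signalling 3 fell, and of 23 ribosome biogenesis genes and 15 ABC transporters 2 fell each, with 0 rises in these lists. Over all genes tested, 6.41% rose and 6.11% fell. Several lists lay near these shares: 8.33% of EGF family and 9.09% of interferon-response genes rose, and 8.7% of ribosome biogenesis genes fell. Arrays left out in the same order gave 1, 1, 3 and 1 integrin genes, 0, 0, 1 and 0 Hox genes, 2, 0, 2 and 0 proteasome genes, 0, 0, 2 and 1 cholesterol genes and 0, 0, 1 and 0 interferon genes higher. They gave 2, 5, 4 and 3 imprinted genes higher and 1, 1, 2 and 2 lower. Without the trend, 1 imprinted gene rose and 1 fell, 1 G1 regulator rose, 1 p53 gene rose and 1 fell, 1 histone gene, 1 heat shock gene and 1 EGF family gene rose, and 0 genes of the other lists of this paragraph were called.

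Several of the largest falls belonged to no list. Gpr20, an orphan receptor, read 8.16 and 8.15 in DMSO and 6.16 and 4.13 in CSA, a fall of 3.01 (SE 0.53) that was 1.99 without CSA replicate 2. Ucn3, the peptide hormone urocortin 3, fell by 2.37 (SE 0.18) from 11.26 and 11.22 to 8.72 and 9.02 (5.16-fold, adjusted p = 2.22e-05). Its day 3 means were 6.98 in DMSO and 5.96 in CSA. Heph, a copper enzyme of iron export, fell by 2.40 (SE 0.36) and Vil1, the brush border protein villin, by 2.11 (SE 0.36). In all 4 both CSA arrays lay below both DMSO arrays, and treatments did not overlap in 58.1% of all genes tested. Fgd5, an exchange factor for Cdc42, fell by 1.85 (SE 0.23) from 10.29 and 10.26 to 8.50 and 8.36, Ptprz1, a receptor phosphatase of neural cells, by 1.82 (SE 0.23) from 10.50 and 10.51 to 8.68 and 8.69, and Plac8 by 1.80 (SE 0.17) from 10.97 and 10.81 to 9.05 and 9.13. Gpr20 and Vil1 were lost without the trend (0.0724 and 0.0518).

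The CSA effect at day 6 was compared with that at day 3 within the same limma fit; the effects share no array. At day 3, 895 genes were higher under CSA, 7.14%, and 692 lower, 5.52%. The effect at day 6 was higher for 296 genes, 2.36%, and lower for 430, 3.43%. Without the intensity trend, limma called 0 probe sets for this difference, against 1144 with it, although 4287 had an unadjusted p under 0.05 (5048 with the trend). Without CSA replicate 1 and 2 of day 3 it was higher for 88 and 96 genes and lower for 168 on either occasion. Without DMSO replicate 1, DMSO replicate 2 and CSA replicate 2 of day 6 it was higher for 148, 107 and 130 and lower for 189, 167 and 244. Of the 803 genes higher at day 6, 259 (32.3%) were also higher at day 3, 15 (1.87%) were lower there, and 529 (65.9%) were not called. Of the 766 genes lower at day 6, 162 (21.1%) were lower at day 3, 53 (6.92%) were higher there, and 551 (71.9%) were not called. A gene called on a single day need not differ between days: of the 529 and 551, 135 and 151 were past the interaction threshold.

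The 53 genes that turned from higher at day 3 to lower at day 6 included the epithelial genes Cdh1, Krt8, St14, Spint2 and S100a14, and Tet2, Jun and Homer2. Others were Peg3, an imprinted zinc finger gene, whose effect went from 0.42 to -0.65 (adjusted p of the difference 0.000914), Ak5, an adenylate kinase, from 1.0 to -1.0 (0.00143), Cpxm2, a carboxypeptidase-like secreted protein, from 1.04 to -1.39 (0.00354), and Muc4, a membrane mucin, from 0.95 to -1.21 (0.0101). Mamdc2, a proteoglycan, went from 0.60, not past the threshold, to a fall of 1.70 (SE 0.24). The 15 genes that turned the other way included Cryab, a small heat shock protein, which read 12.88 and 12.83 in DMSO and 13.40 and 13.27 in CSA at day 6 and went from -0.35 to 0.48 (0.000914). Hspb8, of the same family, rose by 0.54 ± 0.08 at day 6 after a difference of 0.06 at day 3 (interaction adjusted p = 0.0434). Among ATF4 and CHOP regulators, whose median was 0.60 at day 3 and 0.16 at day 6, 2 members had a lower effect at day 6 by the interaction test. Atf5, Chac1, Vldlr and Nupr1 had differences of 2.26, 1.95, 1.60 and 1.32 at day 3, and their interaction adjusted p-values were 0.494 to 0.98; a p that misses the threshold does not show equal effects. The call of Cpxm2 at day 6 ended without DMSO replicate 2 (0.0691), that of Ak5 with averaged probe sets (-0.64, 0.0815), that of Cryab without the trend (0.0678), and that of Muc4 without DMSO replicate 1 (0.107), DMSO replicate 2 (0.106), CSA replicate 1 (0.0632) or CSA replicate 2 (0.0773).

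**Figure D5:**
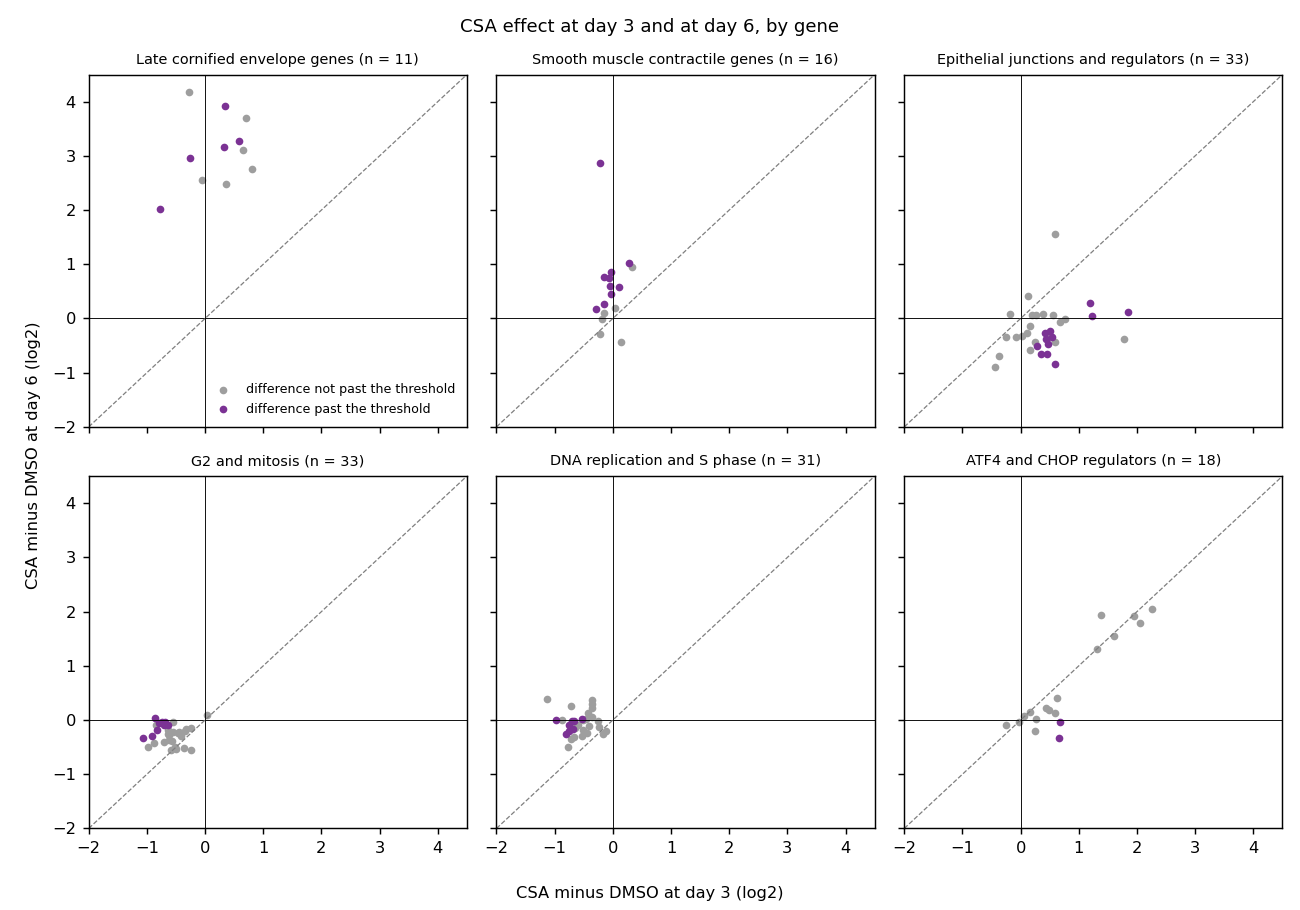
CSA minus DMSO at day 6 (log2, vertical axis) against the same at day 3 (horizontal axis) for the tested members of 6 lists; purple marks genes whose effects differ between days past the threshold, and the dashed line marks equal effects. LCE genes and most smooth muscle genes lie above the line with day 3 values near 0, and most epithelial genes lie above 0 at day 3 and below 0 at day 6, and mitotic and replication genes mostly lie above the line with lower values at day 3.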

How the data were processed

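The values are log2 signals as the authors deposited them, for 45037 probe sets on 8 arrays. The submitters' processing notes name MAS5, a method that summarises the probes of a probe set and multiplies all signals of an array by 1 factor. Its version, its target and any scan batch are not given in the sources. The mean signal of an array, with 2% trimmed at each end, was 496.8 to 497.5, so the arrays were comparable in overall brightness, and 110 to 259 values per array were exactly 0. Background can compress or inflate differences of dim genes.

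The tests covered 27022 probe sets whose mean over the arrays reached the 40th percentile, a log2 signal of 5.37. Of all probe sets, 34945 had 1 gene symbol in the platform annotation, 932 had several and 9160 were not listed; 34741 were matched to a gene by Entrez ID, and probe sets with several symbols named no gene. Limma 3.58.1 in R 4.3.3 fitted 1 mean per group to all 8 arrays (4 residual degrees of freedom) and let the prior variance follow the signal (the intensity trend). P-values are two-sided and adjusted by Benjamini-Hochberg over the tested probe sets, at 0.05. The interaction contrast was the CSA effect at day 6 minus that at day 3. The code was tested on simulated data.

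The comparison, the gene lists and the rule for named genes were chosen with earlier results of these data known. The named genes are the 12 largest rises and falls among called genes whose day 6 arrays do not overlap, the same among genes with a group mean of at least 9, up to 6 members per list with the smallest p, all LCE, calcineurin and cyclophilin genes, up to 8 genes per direction with the largest interaction, and fixed reprogramming genes; not all are printed. Promoters are the 250 bases before the RefSeq start in GRCm38.p6, drawn in Python 3.11.15. The alternatives were quantile normalization, other filters, pseudocounts of 8 and 32, a floor at 5, no trend, the day 6 arrays alone, a replicate block, no shared-sequence probe sets (IDs ending _x_at, _s_at or _a_at), averaged probe sets and each array left out. Whether the replicate numbers pair the samples is not given in the labels. No shared deviation of arrays with the same number was seen over the tested probe sets, with correlations of 0.00253 at day 6 and -0.00344 at day 3.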

Additional observations from a re-analysis of the deposited data

Results flagged for a closer look

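For 62 of the genes named, the CSA effect at day 6 differed from that at day 3 by the interaction test in limma (adjusted p under 0.05), higher for 29 and lower for 33. The values are the effect at day 6 minus the effect at day 3, in log2 units. The threshold was not reached by any probe set without the intensity trend. Some of the named genes were chosen for the largest interaction, and others for a small p at day 6. The counts of named genes past the interaction threshold therefore follow in part from this choice. Among all genes tested, the effect at day 6 was higher for 2.36% and lower for 3.43%.

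Among epidermal genes the difference was 3.57 for Lce1d, 3.22 for Lce1a2, 2.83 for Lce1a1, 2.78 for Lce3b, 2.69 for Lce1f, 1.73 for Crct1, 0.71 for Sprr1a, 0.71 for Asprv1, 2.39 for Klk6 and 1.40 for Krt6a. Among smooth muscle, mesenchymal and matrix genes it was 3.10 for Des, 0.74 for Tagln, 0.81 for Acta2, 0.65 for Cnn2, 0.91 for Actg2, 0.90 for Myl9, 0.46 for Tpm2, 1.05 for Cdh2, 0.55 for Vim, 0.77 for Timp2, 0.94 for Fbln5 and 0.75 for Lox. The remaining genes with a higher effect were in lipid storage, lysosome, iron storage, heat shock and the Ly6 family, with 1.45 for Lpl, 0.58 for Plin2, 0.50 for Atp6v0d1, 0.49 for Fth1, 0.83 for Cryab, 0.48 for Hspb8 and 4.08 for Ly6i.

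Lower effects at day 6 were found in epithelial genes, with -1.43 for St14, -1.51 for S100a14, -1.01 for Spint2, -0.87 for Krt8, -0.79 for Cdh1 and -0.72 for S100a16. In the matrix they were -3.33 for Postn, -0.74 for Col6a2 and -0.54 for Col3a1. In pluripotency and chromatin genes they were -2.04 for Alpl, -1.56 for Pou5f1, -0.92 for Tet2 and -0.41 for Kdm1a. In signalling genes they were -1.37 for Ret, -1.22 for Wif1, -0.90 for Jun, -0.61 for Ier2, -0.61 for Homer2 and -0.53 for Nr4a1. In metabolic genes they were -1.94 for Aldh1l2, -1.83 for Aldoc, -1.54 for Acsl6, -0.96 for Cox6b2, -0.69 for Egln3 and -0.62 for Pdk1. The other genes had -2.52 for Heph, -2.43 for Cpxm2, -2.29 for Mamdc2, -2.15 for Muc4, -2.0 for Ak5, -1.66 for Fgd5, -1.35 for Ucn3 and -1.07 for Peg3. Aldh1l2 was higher under CSA on both days, and less so at day 6.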

How the results depend on the processing

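The choice that mattered most was the intensity trend in limma's prior variance. Without it, 694 probe sets were called at day 6 in place of 2612, with 243 genes higher and 180 lower, and 0 probe sets, 0 genes higher and 0 genes lower for the difference between days in place of 1144, 296 and 430. At an unadjusted p under 0.05, limma still gave 5475 and 4287 probe sets in the 2 contrasts. Without shared-sequence probe sets, 1737 were called at day 6, and the difference between days turned for Col3a1, from -0.54 to 0.0111. Leaving out 1 array of day 6 gave 1112 to 1717 probe sets at day 6, 410 to 513 genes higher and 277 to 498 lower. Leaving out 1 array of day 3, which enters only through the shared variance, gave 2116 to 2848, 641 to 864 and 637 to 851. Over all 8 arrays left out in turn, the difference between days had 390 to 994 probe sets, 88 to 221 genes higher and 167 to 389 lower. Quantile normalization, the filters, pseudocounts, floor, the arrays of day 6 alone and averaged probe sets kept the counts of day 6 within 1.5 times of those given. Like counts need not hold the same genes: with averaged probe sets 1491 genes were called, of which 1134 were among the 1569. Of 880 changed genes with several tested probe sets, 333 had a second one called in the same direction. Of the 880, 3 had a probe set called in the opposite direction. With the replicate block, 2541 and 1018 probe sets were called, so the block moved no count by over 1.5 times. Whether the replicate numbers pair the samples is not known. Of the 139 called genes named, 79 kept their call in all settings that gave them a value, 49 lost it without the trend and 20 with some array left out, and 0 changed direction at day 6. The limits are 2 arrays per group, dim signals near background, probe sets that read several LCE genes, and unknown scan batches.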
